A study of Caenorhabditis elegans with 20 samples.

Results

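The *nlp* genes encode the neuropeptide-like proteins of *C. elegans*, a large class of peptide precursors that belong neither to the insulin family nor to the FMRFamide-related *flp* family. The genes described here are all rows of the deposited table whose WormBase symbol is *nlp* and a number, except 7. The exceptions are the antimicrobial cluster genes *nlp-27*, *nlp-28*, *nlp-29*, *nlp-30*, *nlp-31* and *nlp-34*, and *nlp-40*, whose peptide is released from the intestine. The table holds 71 such rows among 46925 genes, which left 64 *nlp* genes. Of these, 60 had a mean of at least 2 normalized counts over the 20 libraries and were tested. A normalized count is the number of reads on a gene divided by the size factor of its library.

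Precursors of this kind are made in the secretory pathway, cut by proprotein convertases, trimmed, and in many cases amidated at the C terminus. The peptides are packed into dense core vesicles and act mostly on G protein-coupled receptors of other cells. Most *nlp* genes are expressed in neurons, and some also in the intestine, the epidermis or other tissues. Known actions in *C. elegans* include control of sleep, arousal, egg laying, feeding and olfactory behavior.

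RNA was sequenced from whole animals in the dauer stage, an arrested larval stage entered in adverse conditions. All animals carried *daf-2(e1370)*, a mutant form of the insulin receptor gene that is sensitive to temperature, and *daf-16(ot853[daf-16::mNG::AID])*, in which the endogenous FoxO gene is tagged with a fluorescent protein and a degron. The experimental condition combined the otSi2 transgene *ges-1p::TIR1(F79G)*, which makes the F-box protein TIR1(F79G) under an intestinal promoter, with 100 µM of the auxin analog 5-Ph-IAA. The no TIR1 control was the strain without the transgene on 5-Ph-IAA. The no auxin control was the transgenic strain on the solvent, 0.2% ethanol. In the condition with neither component, the strain without the transgene was kept on the solvent. Each condition had 5 biological replicates of about 24000 animals, grown at 25°C for 3 days. With and without TIR1 are 2 strains, so the transgene and any other difference between the strains cannot be told apart. The comparisons ask how intestine-specific DAF-16/FoxO depletion alters expression of these genes in the whole animal.

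The libraries held 3989669 to 15585703 reads on genes in the experimental condition, 10230512 to 12680810 in the no TIR1 control, 7401425 to 10209257 in the no auxin control and 6249223 to 12323401 with neither component. Replicate 5 of the experimental condition was the shallowest, and ribosomal RNA genes took 20.8% of its reads, where the other libraries had 1.30 to 6.56%. The depletion acts on the protein, and *daf-16* mRNA averaged 8334 ± 492 normalized counts in the experimental condition, against 8682 ± 281 in the no TIR1 control and 8764 ± 217 in the no auxin control (SD, n = 5 each), with limma's adjusted p = 0.30 and 0.18. All 10 neuron markers listed were detected, and no intestine-specific sorting was done, so each value is a sum over all tissues.

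The *nlp* genes differed widely in their level in dauers. Genes are ranked here by level per kilobase of exon. Abundance classes, shares and mean counts given further below are not divided by length. The highest level was that of *nlp-49*, with a mean of 2410 normalized counts per kb over the 20 libraries. Its peptide activates the receptor SEB-3 and promotes arousal. Next came *nlp-18* with 2305 and *nlp-14* with 1293 normalized counts per kb. In the experimental condition *nlp-49* had 2139 ± 94.8 and *nlp-18* had 2170 ± 273 normalized counts per kb (SD, n = 5), so there the leading pair did not differ beyond their spread. They had 2539 ± 147 and 2508 ± 221 in the no TIR1 control, and 2485 ± 158 and 2344 ± 109 with neither component. In the no auxin control *nlp-49* was the higher, with 2475 ± 143 against 2198 ± 109. Behind them stood *nlp-33* with 1063, *nlp-11* with 1017, *nlp-21* with 1006, *nlp-13* with 991 and *nlp-9* with 877 normalized counts per kb. The level of *nlp-33*, which is inducible in the epidermis by infection, varied most among genes with a mean of at least 100, with a coefficient of variation of 27.7% over the 15 control libraries, against a median of 9.57% over the 31 *nlp* genes of that abundance. The lowest level among tested genes was 4.46 normalized counts per kb, for *nlp-4*.

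**Figure D1:**
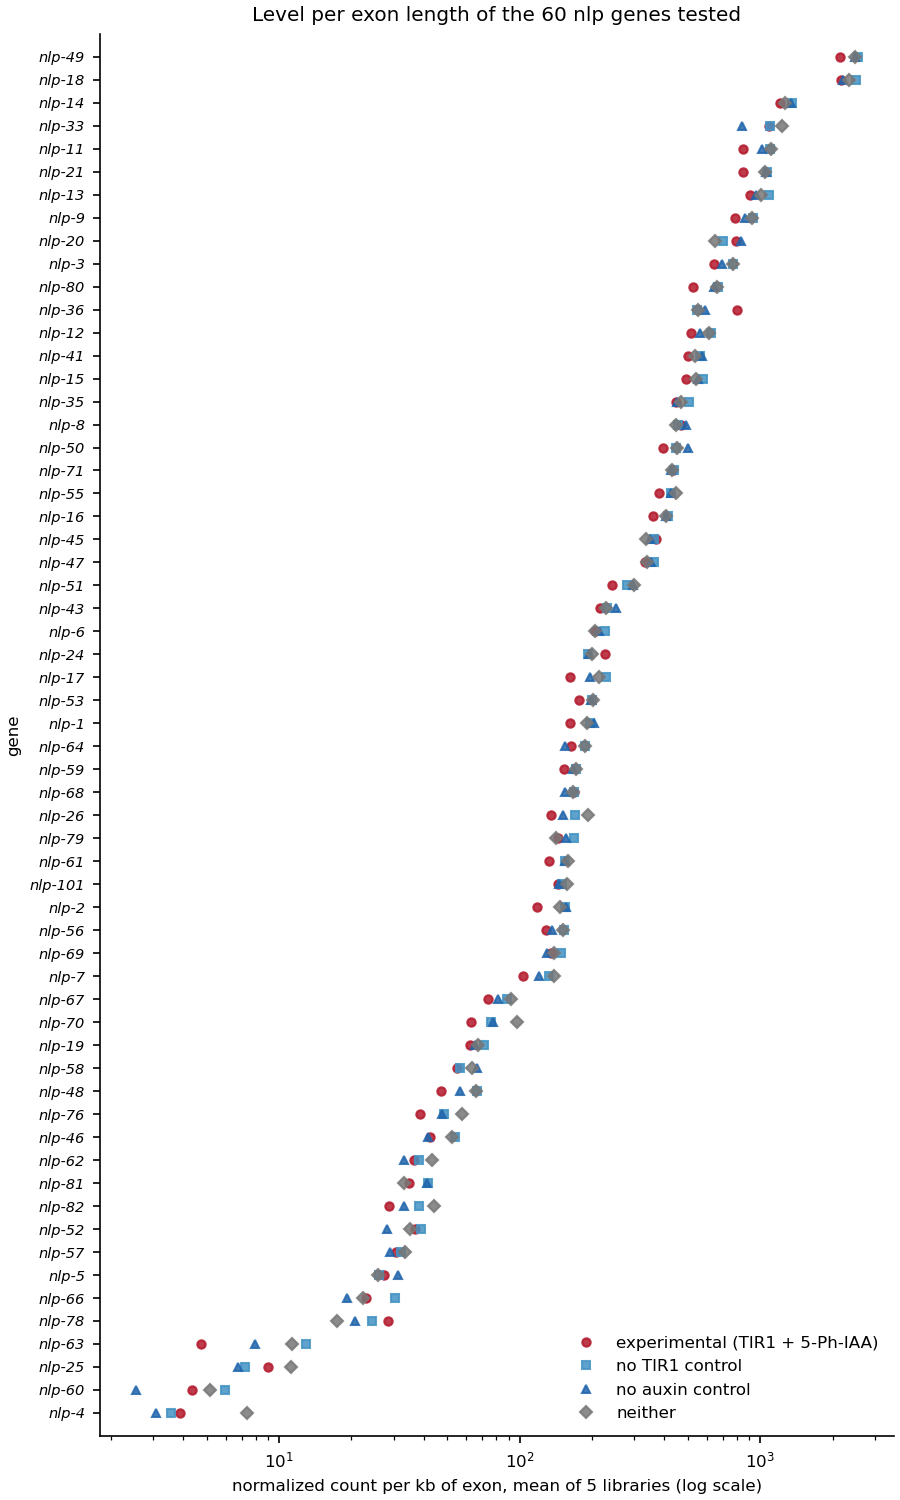
Mean level of the 60 tested *nlp* genes in normalized counts per kb of exon (horizontal, log scale), 1 row a gene, with 1 symbol for each condition (mean of 5 libraries). *nlp-49* leads with a mean of 2410 normalized counts per kb over all libraries and *nlp-4* is lowest with 4.46. The experimental symbol lies left of the others for many genes, such as *nlp-11*, *nlp-21* and *nlp-80*, and right of them for fewer, such as *nlp-36*.

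The 3 genes with a mean above 1000 normalized counts, *nlp-49*, *nlp-14* and *nlp-18*, together gave 28.7% of all normalized counts on the 64 genes, and the 10 most abundant gave 58.4%. A further 28 genes had means between 100 and 1000, 24 between 10 and 100, and 5 between 2 and 10. The tested genes just above the minimum were *nlp-60* with 2.04, *nlp-4* with 2.85 and *nlp-63* with 3.77 normalized counts. Below it stood *nlp-32* with 0.89, *nlp-23* with 0.54 and *nlp-22* with 0.33 normalized counts. *nlp-39* had no read in any of the 20 libraries. In this list 8 genes had no read in at least 1 library, and none of the 4 tested among them was called in any comparison.

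Neighbouring genes differed widely. *nlp-45*, *nlp-22*, *nlp-23* and *nlp-2* lie in this order on the minus strand of chromosome X within 7167 bases of WBcel235, from 2337600 to 2344766. *nlp-45*, whose peptide restrains exploration, had a mean of 232 normalized counts and *nlp-2* had 102. Neither *nlp-22* nor *nlp-23* had more than 3 reads in any library. NLP-22 and NLP-2 are RPamide peptides with reported opposite actions on sleep and wakefulness, and NLP-22 is released by the RIA interneurons. The X chromosome carried 19 of the 64 genes, chromosome V 12, and the other chromosomes 6 to 10 each.

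Fewer counts on *nlp* genes were found after intestinal DAF-16/FoxO depletion, and the differences were small. In comparison with the no TIR1 control, 14 tested genes of 60 were lower and 1, *nlp-36*, was higher (limma, adjusted p under 0.05). Among all 17090 genes tested, 8.37% were called lower and 11.3% higher in this comparison. Against the no auxin control, 7 were lower and 1, again *nlp-36*, was higher, beside 7.38% of all genes lower and 11.6% higher. At a mean of at least 100 normalized counts, 12 of 31 *nlp* genes were lower than in the no TIR1 control and 7 of 31 lower than in the no auxin control, beside 13.8% and 11.6% of all 7947 genes of that abundance. No *nlp* gene passed the study's 1.5-fold cutoff (0.58 on the log2 scale) together with the adjusted p in either comparison, against 9.17% of all genes in the comparison with the no TIR1 control and 8.88% in that with the no auxin control.

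Most genes that were not called also had negative values. Of 60 log2 fold changes, 51 were negative against the no TIR1 control (85%, beside 52.0% of all genes), with a median of −0.20 beside −0.01 over all genes. Against the no auxin control, 42 were negative (70%, beside 52.9% of all genes), with a median of −0.13 beside −0.02. The signs were also uneven for the single components. For TIR1(F79G) alone 41 of 60 values were negative (68.3%, beside 50.5% of all genes), with a median of −0.06, and for 5-Ph-IAA alone 39 were positive and 21 negative, with a median of 0.02. The pair of comparisons share the experimental libraries, so one is not independent of the other. Of the 29 tested genes with a mean under 100 normalized counts, 2 were called, *nlp-7* and *nlp-17*, both lower against the no TIR1 control only. In that comparison 8.37% of all genes of any abundance were lower, and 13.8% of those with a mean of at least 100. The share of all genes with a mean under 100 is not given here.

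**Figure D2:**
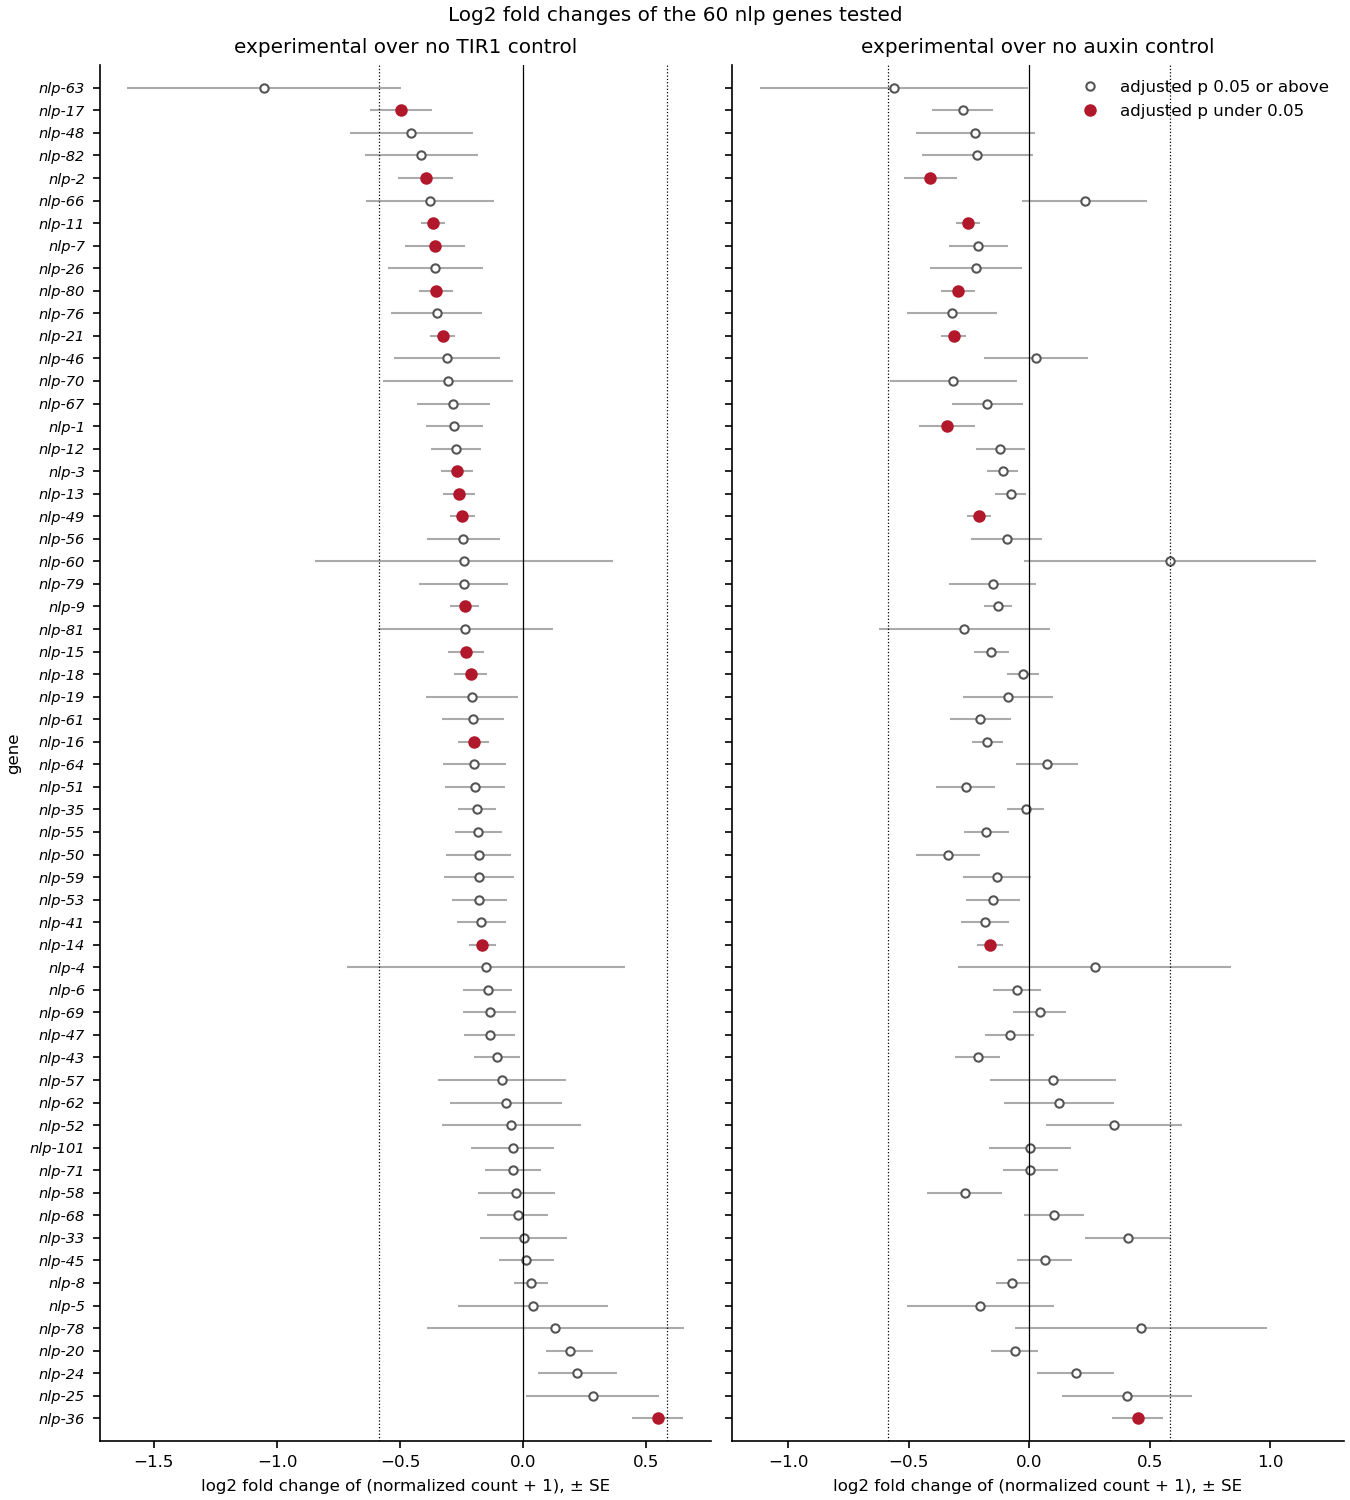
Log2 fold change of (normalized count + 1) with its standard error for the 60 tested *nlp* genes, in the experimental condition over the no TIR1 control (left) and over the no auxin control (right), ordered by the left panel. Filled points had an adjusted p under 0.05, and dotted lines mark a 1.5-fold change. Most points lie left of 0, with 51 negative values in the left panel and 42 in the right, and *nlp-36* is the only filled point on the right of 0.

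Called against both controls were 6 genes lower (*nlp-11*, *nlp-21*, *nlp-80*, *nlp-49*, *nlp-2* and *nlp-14*) and 1 higher (*nlp-36*), beside 5.09% of all genes lower and 8.69% higher. All 5 experimental values lay below all 15 control values for 4 of these, *nlp-11*, *nlp-21*, *nlp-49* and *nlp-80*, beside 2.5% of all genes. All 5 lay above all 15 for *nlp-36* alone, beside 4.53% of all genes.

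*nlp-11* (WBGene00003749, chromosome II of WBcel235, 9689664 to 9691939) had 519, 557, 570, 512 and 562 normalized counts in the experimental libraries, against 641, 703, 740, 744 and 679 in the no TIR1 control, 663, 622, 673, 666 and 617 in the no auxin control, and 678, 715, 738, 700 and 700 with neither component. Every experimental value lay below every control value, and the no auxin control lay below the other control groups on average. It fell by 0.37 on the log2 scale against the no TIR1 control (SE 0.05, adjusted p = 3.4e-06) and by 0.25 against the no auxin control (SE 0.05, adjusted p = 0.00043), which corresponds to changes of −22.4% and −16.1%.

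*nlp-21*, whose precursor fused to a fluorescent protein is a common reporter of dense core vesicle release from motor neurons (WBGene00003759), lies on chromosome III from 11388624 to 11393262. It had 683, 709, 672, 649 and 646 normalized counts in the experimental libraries, against 803, 810, 873, 904 and 827 in the no TIR1 control, 769, 809, 914, 790 and 902 in the no auxin control, and 791, 813, 861, 819 and 835 with neither component. The highest experimental value was below the lowest control value, and the control groups overlapped one another. It fell by 0.33 on the log2 scale against the no TIR1 control (SE 0.05, adjusted p = 3.0e-05) and by 0.31 against the no auxin control (SE 0.05, adjusted p = 5.5e-05). Its exons share 46 bases with *subs-4* on the opposite strand. The strand setting of the counting is not given in the sources used here, so reads in such stretches cannot be assigned with certainty. *subs-4* itself averaged 48.7 ± 14.6 normalized counts in the experimental condition, against 32.9 ± 7.68 in the no TIR1 control and 30.4 ± 6.49 in the no auxin control (SD, n = 5 each), the opposite direction.

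*nlp-49* (WBGene00019160, chromosome X, 5904653 to 5905345) had 1254, 1320, 1350, 1204 and 1289 normalized counts in the experimental libraries, against 1418, 1595, 1537, 1450 and 1618 in the no TIR1 control, 1357, 1580, 1545, 1472 and 1471 in the no auxin control, and 1381, 1489, 1626, 1530 and 1429 with neither component. The gap was narrow, 1350 in experimental replicate 3 against 1357 in replicate 1 of the no auxin control. It fell by 0.25 on the log2 scale against the no TIR1 control (SE 0.05, adjusted p = 0.00070) and by 0.21 against the no auxin control (SE 0.05, adjusted p = 0.0036). SEB-3, its receptor, had log2 fold changes of −0.08 and −0.09 (SE 0.09 each) and was not called.

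*nlp-80* (WBGene00011428, chromosome V, 11064954 to 11065613) had 297, 275, 289, 310 and 230 normalized counts in the experimental libraries, against 357, 345, 345, 347 and 388 in the no TIR1 control, 358, 364, 318, 336 and 339 in the no auxin control, and 369, 323, 365, 335 and 366 with neither component. The lowest value came from experimental replicate 5, the shallowest library, and the groups did not overlap with or without it. It fell by 0.35 on the log2 scale against the no TIR1 control (SE 0.07, adjusted p = 0.00049) and by 0.30 against the no auxin control (SE 0.07, adjusted p = 0.0031).

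*nlp-2* (WBGene00003740), the RPamide gene of the X chromosome group described above, had 88.4, 89.9, 95.5, 62.2 and 81.5 normalized counts in the experimental libraries, against 101, 110, 110, 94.6 and 133 in the no TIR1 control, 116, 115, 109, 104.3 and 106 in the no auxin control, and 97.2, 112, 116, 105 and 93.5 with neither component. Experimental replicate 3 overlapped the lowest control values, and experimental replicate 4 stood below all others. It fell by 0.40 on the log2 scale against the no TIR1 control (SE 0.11, adjusted p = 0.012) and by 0.41 against the no auxin control (SE 0.11, adjusted p = 0.0098). Without experimental replicate 4 the adjusted p against the no TIR1 control was 0.0505.

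*nlp-14*, an orcokinin-like gene whose peptides take part in stress-induced sleep (WBGene00003752), lies on chromosome X from 8917423 to 8919423. It had 1214, 1234, 1305, 1133 and 1275 normalized counts in the experimental libraries, against 1287, 1382, 1446, 1308 and 1488 in the no TIR1 control, 1281, 1416, 1389, 1329 and 1475 in the no auxin control, and 1219, 1242, 1437, 1244 and 1367 with neither component. Groups overlapped, most of all the experimental condition and the condition with neither component. It fell by 0.16 on the log2 scale against the no auxin control (SE 0.05, adjusted p = 0.035), and the difference from the no TIR1 control was −0.17 (SE 0.05, adjusted p = 0.030). The call depended on single libraries, since it held in 15 of 20 fits with 1 library left out against the no TIR1 control, and in 14 of 20 in comparison with the no auxin control.

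*nlp-36* (WBGene00007185) was the 1 gene that rose, and lies on chromosome III from 9488731 to 9489186. It had 307, 294, 277, 273 and 259 normalized counts in the experimental libraries, against 195, 187, 199, 203 and 179 in the no TIR1 control, 153, 204, 228, 225 and 232 in the no auxin control, and 209, 176, 222, 152 and 214 with neither component. The lowest experimental value exceeded the highest control value. It rose by 0.55 on the log2 scale against the no TIR1 control (SE 0.10, adjusted p = 0.00036) and by 0.45 against the no auxin control (SE 0.10, adjusted p = 0.0027), or by 46.1% and 36.6%. Of its 352 exonic bases, 11 are shared with *dars-1*, an aspartyl-tRNA synthetase gene on the opposite strand. *dars-1* averaged 2281 ± 57.3 normalized counts in the experimental condition, against 2213 ± 57.2 in the no TIR1 control and 2239 ± 141 in the no auxin control (SD, n = 5 each), and was not called.

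**Figure D3:**
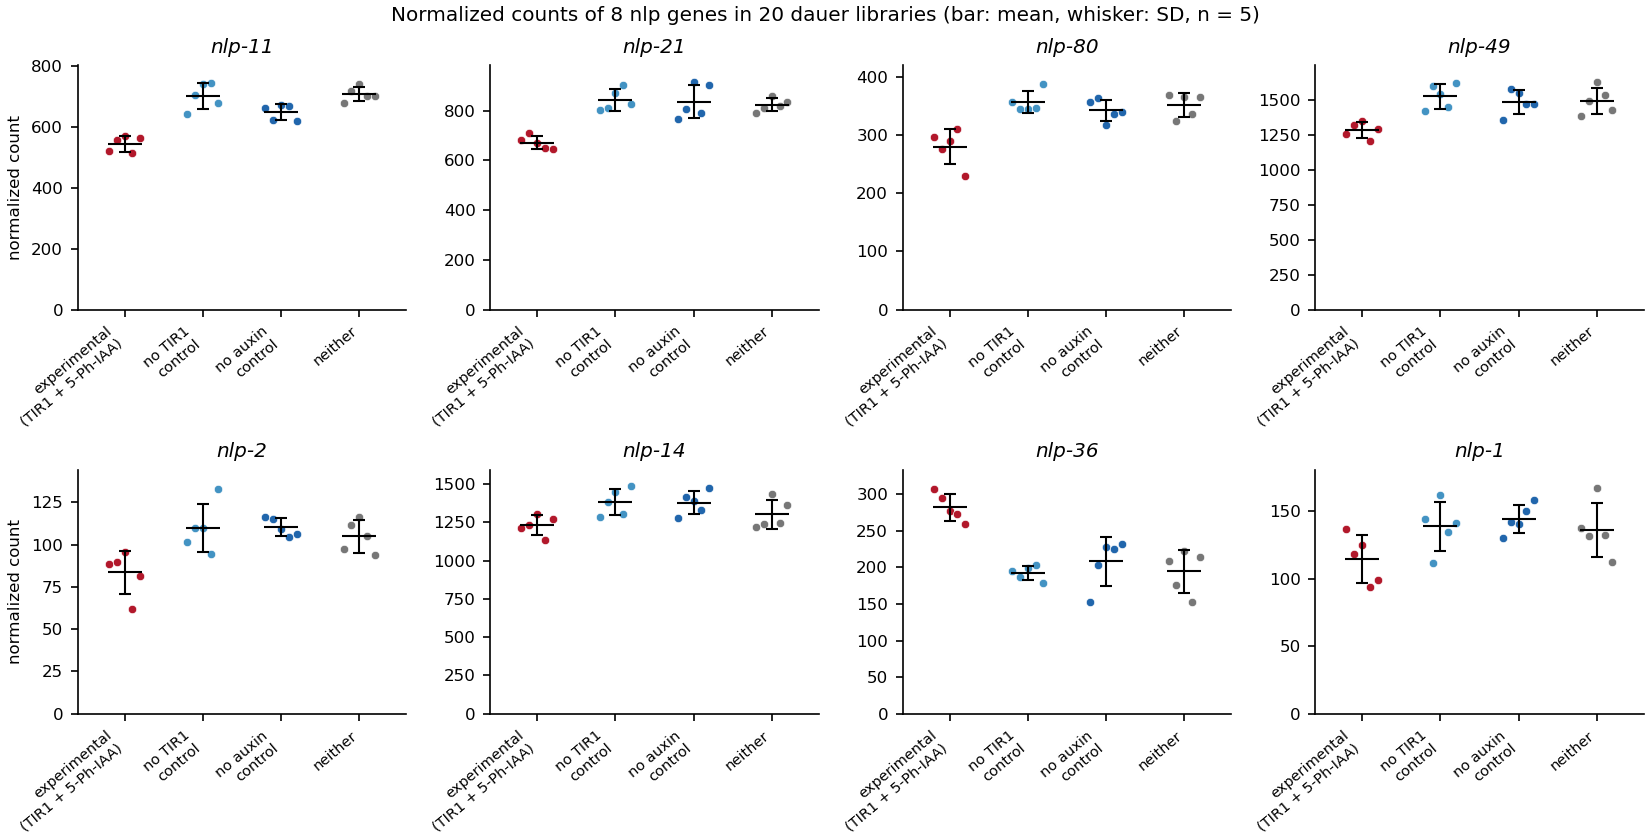
Normalized counts of 8 *nlp* genes in each of the 20 libraries (points), with the mean (bar) and SD (whisker) of 5 libraries, from left to right in the experimental condition, the no TIR1 control, the no auxin control and the condition with neither component. The experimental points of *nlp-11*, *nlp-21*, *nlp-80* and *nlp-49* lie below all control points, those of *nlp-36* (259 to 307) above all control points (152 to 232), and those of *nlp-2*, *nlp-14* and *nlp-1* overlap with controls.

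The other genes passed the test in a single comparison. *nlp-17* had the most negative log2 fold change among called genes, −0.50 (SE 0.13, adjusted p = 0.0054) against the no TIR1 control, with 70.1 ± 8.86 normalized counts in the experimental condition and 99.0 ± 9.63 in the no TIR1 control (SD, n = 5 each). Against the no auxin control it was −0.28 (adjusted p = 0.14). It shares 30 exonic bases with *seld-1* on the opposite strand, which was not called in either comparison. *nlp-9* and *nlp-13*, which lie on the plus strand of chromosome V between 4219642 and 4238056, had similar values in the comparison with the no TIR1 control, −0.24 (SE 0.06, adjusted p = 0.0045) and −0.26 (SE 0.07, adjusted p = 0.0046). The remaining genes lower only against the no TIR1 control were *nlp-3*, *nlp-7*, *nlp-15*, *nlp-16* and *nlp-18*. Their log2 fold changes ranged from −0.36 for *nlp-7* to −0.20 for *nlp-16*, and all were also negative, but not called, against the no auxin control.

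*nlp-1*, which is expressed in the AWC olfactory neurons and whose peptide acts on the receptor NPR-11, was lower only against the no auxin control, with 137, 118, 125, 93.6 and 99.0 normalized counts in the experimental libraries and 130, 142, 141, 150 and 158 in that control. It fell by 0.34 on the log2 scale (SE 0.12, adjusted p = 0.038), while the difference from the no TIR1 control was −0.28 (adjusted p = 0.095). This call held in 14 of 20 fits with 1 library left out and was not made by edgeR or DESeq2 on the recovered reads. That these genes were called against one control and not the other does not show that the comparisons differ, and that difference was not tested.

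Each component alone gave the *nlp* genes few or no calls. For 5-Ph-IAA alone, that is the no TIR1 control against neither component, limma called 0 of 60 genes, beside 0.041% of all genes. edgeR and DESeq2 also called 0. At an unadjusted p under 0.05 limma had 1 of the 60, beside 4.89% of all genes. For TIR1(F79G) alone, the no auxin control against neither component, limma called 0, beside 0.603% of all genes. edgeR called 0 and DESeq2 called 1. Limma had 6 of the 60 at an unadjusted p under 0.05, beside 10.5% of all genes. The gene called by DESeq2 was *nlp-20*, which had a limma log2 fold change of 0.35 (SE 0.10, adjusted p = 0.10) with 397 ± 56.4 normalized counts in the no auxin control and 310 ± 21.1 with neither component (SD, n = 5 each). *nlp-33* had −0.56 (SE 0.18, adjusted p = 0.18) in the same comparison, with 289 ± 81.7 normalized counts in the no auxin control and 422 ± 97.1 with neither component. With the replicate number as a block, limma called *nlp-20* higher (adjusted p = 0.0042) and *nlp-33* lower (adjusted p = 0.014) for TIR1(F79G) alone.

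The interaction asks whether the effect of 5-Ph-IAA differed between animals with and without TIR1(F79G). It was negative for 5 genes past the threshold, *nlp-21*, *nlp-11*, *nlp-49*, *nlp-14* and *nlp-80*, and positive for 0. In either direction, 14 of 60 genes had an unadjusted p under 0.05 by limma, beside 22.4% of all genes. edgeR and DESeq2 each called 1 positive, *nlp-36*. Among all genes limma called 3.6% negative and 7.17% positive at an adjusted p under 0.05. The largest difference of the 5 was that of *nlp-21*, −0.35 (SE 0.07, adjusted p = 0.0017), and the other 4 lay between −0.32 and −0.24 with adjusted p of 0.023 to 0.038. The count of negative genes fell to 2 without replicate 4 of the experimental condition, without replicate 5 of the no TIR1 control or without replicate 2 of the no auxin control, and to 3 without replicate 2 or 3 of the no TIR1 control, replicate 3 of the no auxin control, or replicate 1, 2 or 4 of the condition with neither component. *nlp-36* was called positive by limma in 6 of the 20 fits with 1 library left out.

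Grouped by known action, some genes passed and others did not, and no test was made over the groups. Of the sleep genes, *nlp-14* was lower against both controls, whereas *nlp-8*, which also acts in stress-induced sleep, had log2 fold changes of 0.03 and −0.07 (SE 0.07 each), with 394 ± 32.1 normalized counts in the experimental condition, 385 ± 23.6 in the no TIR1 control and 413 ± 32.2 in the no auxin control (SD, n = 5 each). *nlp-22* was at 0 in all experimental and all no TIR1 control libraries and never exceeded 1 read elsewhere. Among 5 genes of arousal, escape and locomotion, *nlp-49* and *nlp-18* were lower against the no TIR1 control and *nlp-49* against the no auxin control. *nlp-12*, the cholecystokinin-like peptide gene of the DVA neuron, had −0.27 (SE 0.10, adjusted p = 0.065) and −0.12 (SE 0.10, adjusted p = 0.47). *nlp-45* had 0.01 and 0.06 (SE 0.11 each) and *nlp-20* had 0.19 and −0.06 (SE 0.10 each), and none of these passed.

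Of the 3 genes grouped for egg laying, feeding and oxygen deprivation, *nlp-3* and *nlp-7*, which act on egg laying, were lower against the no TIR1 control and neither passed against the no auxin control. *nlp-24*, an opioid-like precursor that acts in feeding under starvation, had positive values of 0.22 and 0.19 (SE 0.16 each), which did not pass. Its exons share 24 bases with *glb-15* on the opposite strand. Of the RPamide genes listed, *nlp-2* was lower, and *nlp-22* and *nlp-23* were too low to test. *nlp-47*, listed with them, encodes a peptide related to gonadotropin-releasing hormone and had −0.14 and −0.08 (SE 0.10 each). Both orcokinin-like genes, *nlp-14* and *nlp-15*, were lower against the no TIR1 control.

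None of the 4 tested genes of the glycine-rich group was called, and their medians on the log2 scale were 0.11 over the no TIR1 control and 0.30 over the no auxin control, beside −0.20 and −0.13 over all tested *nlp* genes. *nlp-33* had 0.00 (SE 0.18) and 0.41 (SE 0.18, adjusted p = 0.12), and *nlp-25* had 0.28 and 0.40 (SE 0.27 each). *nlp-26*, which shares 29 exonic bases with a gene on the opposite strand, had −0.36 and −0.22 (SE 0.19 each). The no auxin control was itself low for this group, whose median for TIR1(F79G) alone was −0.45.

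Of 18 genes for peptide processing and dense core vesicle release, 6 were lower against both controls. These were *egl-3*, the proprotein convertase that cuts most neuropeptide precursors, *egl-21*, the carboxypeptidase that trims them, *sbt-1*, the chaperone of the convertase, *pghm-1*, an amidation enzyme, *ida-1*, a dense core vesicle membrane protein, and *bli-4*, a convertase best known for its role in the cuticle. The normalized count of *egl-3* averaged 10838 ± 252 in the experimental condition, against 12620 ± 520 in the no TIR1 control and 12182 ± 657 in the no auxin control (SD, n = 5 each). It fell by 0.22 (SE 0.04, adjusted p = 0.00014) and 0.17 (SE 0.04, adjusted p = 0.0025) on the log2 scale. The other 5 had values between −0.29 and −0.13. In single comparisons *pgal-1* was lower against the no auxin control, *aex-5* higher against the no TIR1 control and *unc-108* higher against the no auxin control. The list's median was −0.15 in both comparisons, beside −0.01 and −0.02 over all genes. *unc-31*, which is needed for dense core vesicle release, had −0.13 and −0.15 (SE 0.07 each) and was not called.

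Of 8 receptors reported for *nlp* peptides, *ckr-2* alone was called. This receptor of NLP-12 fell by 0.36 and 0.37 on the log2 scale (SE 0.06 each, adjusted p = 7.8e-05 and 5.3e-05), with 241 ± 18.3 normalized counts in the experimental condition, 309 ± 14.7 in the no TIR1 control and 312 ± 16.2 in the no auxin control (SD, n = 5 each). The median over the 8 receptors was −0.27 in both comparisons. The 6 processing genes called against both controls, *ckr-2* and 3 neuron markers described in the next paragraph gave 20 calls over both comparisons. Of these, 13 were lost with the oocyte marker sum as a covariate and 11 when genes were expressed relative to neuron markers. With the neuron marker sum, which includes 3 of these genes, none of the 20 remained.

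The summed level of the 64 *nlp* genes lay between 12089 and 13408 normalized counts in the experimental libraries, against 13931 to 15425 in the no TIR1 control, 12936 to 14615 in the no auxin control and 13684 to 15270 with neither component. The experimental range overlapped that of the no auxin control and no other. Some genes that mark all neurons were lower as well. The sum of the 10 neuron markers was 8517 to 8819 in the experimental libraries, against 9135 to 9581 in the no TIR1 control, 9356 to 9555 in the no auxin control and 8987 to 9251 with neither component, without overlap. Of these markers *unc-104*, *unc-10* and *snt-1* were called lower against both controls and *ric-4* against the no TIR1 control, and the list's medians were −0.13 and −0.10. *unc-104*, a kinesin gene, averaged 1849 normalized counts in the experimental condition, against 2228 in the no TIR1 control and 2280 in the no auxin control, and so made up a large part of the difference between the sums. Other markers had positive values that were not called, *snb-1* with 0.07 and 0.03 (SE 0.04 each) and *ehs-1* with 0.07 in both comparisons (SE 0.06). In whole animals, fewer or smaller neurons relative to other tissues and less RNA of a gene per neuron cannot be told apart.

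Markers of some other tissues also moved with the condition. The sum of the 10 oocyte markers was 2528 to 6553 normalized counts in the experimental libraries, against 1441 to 1748 in the no TIR1 control, 1536 to 2578 in the no auxin control and 1436 to 2915 with neither component, and all 10 were called higher against both controls. Within the experimental condition, replicates 1 to 5 had oocyte sums of 3886, 2528, 4179, 6553 and 6141. Their *nlp* sums were 12590, 12964, 13195, 12089 and 13408 in the same order. Replicate 5, with the highest *nlp* sum, was the shallowest library, and ribosomal RNA genes took 20.8% of its reads. How the sums varied together was not tested. The 6 yolk genes summed to 8617 to 53264 in the experimental libraries and 0.99 to 14135 in the controls. The 6 intestine markers summed to 12829 to 13861 in the experimental libraries and 8640 to 9365 in the controls, and the 6 hypodermis markers to 880 to 1263 in the experimental libraries and 617 to 942 in the controls. Within the hypodermis list *elt-3* went the other way and was lower against both controls, with log2 fold changes of −0.22 and −0.29 (SE 0.06 each). The sums of the 6 body wall muscle markers overlapped, with 66249 to 76236 in the experimental libraries and 64623 to 76057 in the controls. Single muscle markers moved in opposite directions. *myo-3* was lower against both controls, with −0.57 (SE 0.11) on the log2 scale against the no TIR1 control. *unc-54* was higher against the no TIR1 control, with 0.27 (SE 0.06), and also for TIR1(F79G) alone. The part of these shifts in the *nlp* result was not tested, other than by the fits that follow.

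**Figure D4:**
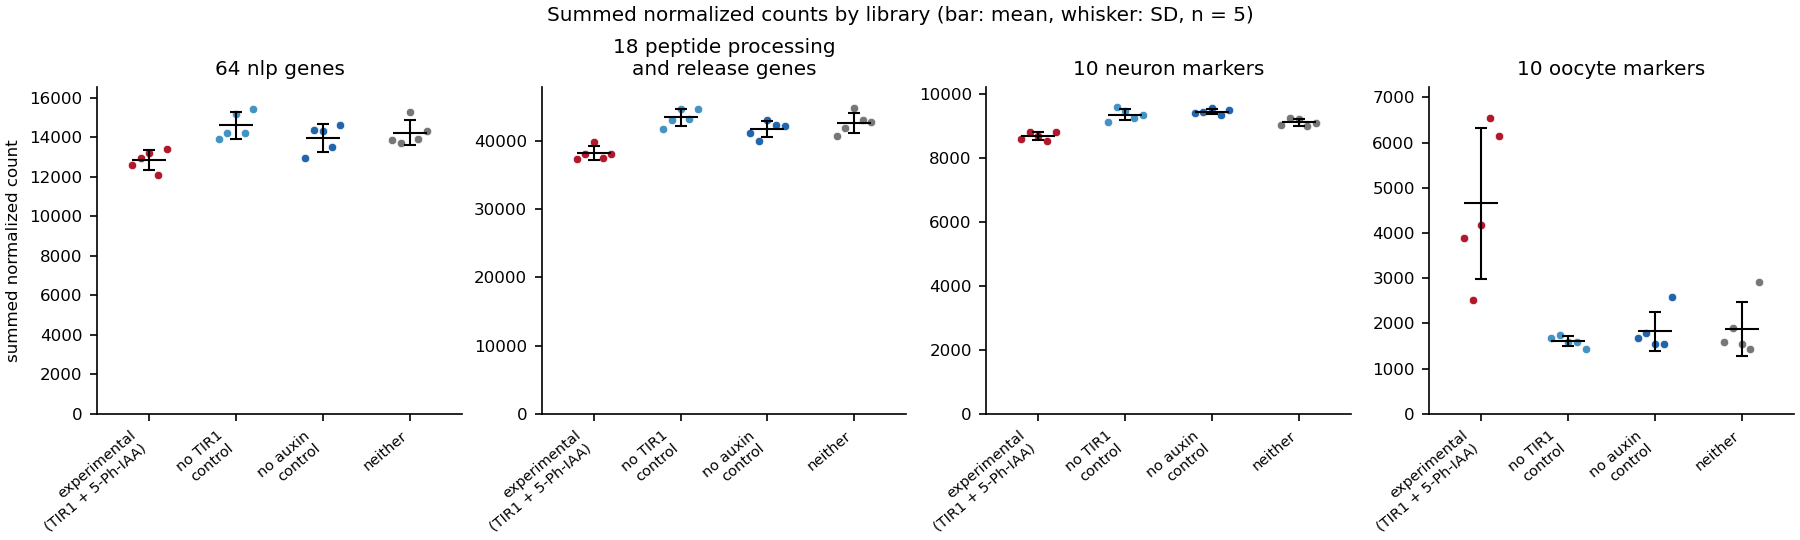
Summed normalized counts by library (points), with mean (bar) and SD (whisker) of 5 libraries, for the 64 *nlp* genes, 18 genes of peptide processing and release, 10 neuron markers and 10 oocyte markers. In the experimental condition, leftmost in each panel, the *nlp* sum (12089 to 13408) and the neuron marker sum (8517 to 8819) are low and the oocyte marker sum (2528 to 6553) is high.

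Most calls on *nlp* genes were lost when such a sum was a covariate. The share of all genes called in these fits is not given here, so the loss is not shown to be particular to *nlp* genes. With the log2 oocyte marker sum in the model, 2 genes (*nlp-13* and *nlp-18*) were lower against the no TIR1 control, and 0 genes passed in comparison with the no auxin control. With the log2 neuron marker sum, 1 (*nlp-80*) was lower and 1 (*nlp-20*) higher against the no TIR1 control and 0 were called against the no auxin control. Several fold changes stayed close to their size with the oocyte covariate while their p rose. Against the no TIR1 control, *nlp-80* had −0.33 (adjusted p = 0.15), *nlp-21* had −0.29 (adjusted p = 0.073), *nlp-11* had −0.29 (adjusted p = 0.051, with −0.37 in the fit without the covariate) and *nlp-36* had 0.50 (adjusted p = 0.15) on the log2 scale. Others shrank, among them *nlp-2* to −0.05 (adjusted p = 0.94) and *nlp-16* to −0.04 (adjusted p = 0.93). The neuron marker sums of the experimental libraries do not overlap with those of the controls. The condition and this sum are therefore largely confounded in these fits. The oocyte marker sums of the experimental libraries, 2528 to 6553, lay above the 1441 to 1748 of the no TIR1 control. They overlapped only the upper end of the no auxin control (to 2578) and of neither component (to 2915). The condition is thus partly confounded with the oocyte sum too. When each gene was instead expressed relative to the neuron marker sum of its library, a scaling chosen after seeing the data that moved the median of all genes to 0.10 in both comparisons, *nlp-11*, *nlp-21*, *nlp-80*, *nlp-49* and *nlp-17* were lower and *nlp-36* and *nlp-20* higher against the no TIR1 control. Against the no auxin control *nlp-11* and *nlp-21* were lower and *nlp-36* and *nlp-33* higher. Without experimental replicate 4, 9 genes were lower than in the no TIR1 control and 5 lower than in the no auxin control. Without experimental replicate 5 these were 13 and 7.

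Overlap with other genes touches 11 of the 64 genes, 10 on the opposite strand and *nlp-76* with *nhr-17* on the same strand. Among the 16 genes called in either comparison these were *nlp-17*, *nlp-21* and *nlp-36*. The least abundant of the 16, *nlp-7*, had a mean of 74.9 normalized counts and 18 to 109 reads a library.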

How the data were processed

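RNA-seq of whole dauers was analysed in 20 libraries, 5 in each of 4 conditions. The authors trimmed reads with Trimmomatic, checked them with FastQC, aligned them with STAR to the WS284 genome, counted them with featureCounts and normalized them with DESeq2. Versions and the strand setting are not given in the sources used here. The deposited values have the unit signal: normalized counts with 1 column a library, and dividing by the value of 1 read (0.612 to 2.91) gave whole reads for 100% of values within 0.01.

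Gene positions and exon lengths came from the WBcel235 annotation, which held 46921 of the 46925 identifiers. Limma 3.58.1 in R 4.3.3 was fitted to log2(normalized count + 1) of the 17090 genes with a mean of at least 2, with 1 mean per condition, a mean-variance trend and Benjamini-Hochberg adjustment over all genes within each comparison. Fold changes are on this scale, which understates changes of low genes. A call is an adjusted p under 0.05. The members and gene lists were chosen with earlier results of these data known. Genes named were those called in either experimental comparison, the most abundant, the role and family groups, and pathway and neuron marker genes called in both comparisons. *nlp-38* of the myoinhibitory family was not analysed here.

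Alternatives were other pseudocounts, filters, scalings and call rules, a block for the replicate number, fits limited to the conditions compared, marker covariates, each library left out, and edgeR 4.0.16 and DESeq2 1.42.0 on the recovered reads. The scaling to neuron markers was added after seeing the data. The fit was tested on simulated data. Counting intervals would cover counting error only. Tables used Python 3.11.15 and pandas 2.3.3. Sequences were not used here.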

Additional observations from a re-analysis of the deposited data

Results flagged for a closer look

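The effect of 5-Ph-IAA differed between animals with and without TIR1(F79G) for 5 genes by the interaction term of limma. The log2 difference was −0.35 for *nlp-21*, −0.32 for *nlp-80*, −0.25 for *nlp-14*, −0.24 for *nlp-11* and −0.24 for *nlp-49*. Among all genes 3.6% were called negative and 7.17% positive. The number of *nlp* genes called was 2 to 6 with 1 library left out and 0 with either marker covariate.

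In 2 of 64 groups of 5 libraries, made of the 16 called genes in 4 conditions, a single library stood apart from the rest by Dixon's criterion, where chance flags about 1 in 20 groups, or 3.2. Replicate 3 of the no TIR1 control had 462 normalized counts of *nlp-3*, against 379 to 393 in the other replicates. Replicate 5 of the same control had 388 normalized counts of *nlp-80*, against 345 to 357 in the others.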

How the results depend on the processing

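Limits first. The largest called change was under 1.5-fold, and the calls rest on 5 libraries a group. Of the 29 tested genes with a mean under 100 normalized counts, 2 were called. Summed RNA levels of neuron, oocyte, yolk, intestine and hypodermis markers shifted with the condition, and whether tissue composition changed was not tested.

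Against the no TIR1 control, the 15 calls became 2 with the oocyte marker covariate and 2 with the neuron marker covariate, 7 relative to neuron markers, 9 at an adjusted p under 0.01 and 0 with the 1.5-fold cutoff. The lower ones alone, 14, became 2, 1, 5, 8 and 0 in that order. The 8 called against the no auxin control became 0 with either covariate, 4 relative to neuron markers and 0 with the 1.5-fold cutoff, and the 7 lower ones became 0, 0, 2 and 0. The interaction's 5 became 3 with no filter, 0 with either covariate, 3 relative to neuron markers (all positive), 1 at an adjusted p under 0.01 and 0 with the cutoff. DESeq2 gave 1 call for TIR1 alone. The share of all genes called in these marker fits is not given here, and why the covariates removed calls was not tested.

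The replicate numbers were not treated as pairs, since the labels name nothing shared by a number and not every correlation of deviations between same-numbered samples was over 0.1 (−0.098 to 0.25). In 14 of 30 cases a sample correlated best with its own number among 5, a hint from the data that numbers may share some variation. With the replicate block, 15 genes were lower and 2 higher, *nlp-20* and *nlp-36*, against the no TIR1 control (14 and 1 without it). Against the no auxin control 13 were called (8 without it), 11 of them lower (7 without it). The block gave 9 in the interaction (5 without it) and 2 for TIR1 alone, *nlp-20* and *nlp-33* (0 without it). The share of all genes called with the block is not given here.

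Leaving out 1 library gave 10 to 15 calls and 9 to 14 lower against the no TIR1 control, 6 to 11 calls and 5 to 10 lower against the no auxin control, 2 to 6 in the interaction, and 0 for each component alone. Without length division *nlp-18* ranked at 3 and *nlp-14* at 2, while *nlp-49* still led.

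Some log2 fold changes turned positive, none of them past the threshold. With the neuron marker covariate, against the no TIR1 control, they were 0.092 (*nlp-14*), 0.083 (*nlp-15*), 0.0091 (*nlp-2*) and 0.0075 (*nlp-49*). Against the no auxin control they were 0.13 (*nlp-14*), 0.20 (*nlp-15*), 0.027 (*nlp-18*), 0.047 (*nlp-2*), 0.032 (*nlp-3*), 0.077 (*nlp-49*), 0.083 (*nlp-9*) and 0.0046 (*ida-1*). With the oocyte marker covariate *nlp-1* had 0.073 against the no TIR1 control. Relative to neuron markers, against the no auxin control, *nlp-13* had 0.043, *nlp-18* 0.095 and *nlp-3* 0.011. *nlp-18* had −0.097 to 0.021 against that control with 1 library left out, the positive value without experimental replicate 2.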
